A study of Mus musculus with 36 samples.

Results

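The genes described here are 6 regulators of stress signalling and growth arrest: Gadd45a, Gadd45b, Gadd45g, Nfkbia, Cdkn1a and Ddit4. They were taken by name from 2 expression tables of the mouse suprachiasmatic nucleus (SCN), the hypothalamic pacemaker of daily rhythms, and they are 6 of 24883 rows in each table. The 6 were chosen by name with results on their levels over time of day and diet in these same libraries known, and no measured value or threshold was given for the choice. All levels and fits below are therefore a description of the genes, and the p-values are no independent evidence about them.

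Adult C57BL/6J mice received either normal chow or a high-fat diet during 10 weeks, and an SCN-enriched region was dissected at zeitgeber time (ZT, hours from lights on) 0, 4, 8, 12, 16 and 20. Each diet and time point had 3 libraries of total RNA prepared with a stranded mRNA protocol, which gave 12 groups and 36 libraries. All groups shared the strain and the length of feeding, and the labels name no engineered allele. Whether each library stands for an animal of its own is not stated in the labels, and p-values then measure the spread between these libraries, which may be technical.

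The proteins belong to separate arms of the response to stress. GADD45 proteins are small, inducible partners of the MAP kinase kinase kinase MEKK4 and of the cell cycle kinase CDK1, and they also take part in DNA repair and active demethylation. IκBα, the product of Nfkbia, holds NF-κB in the cytoplasm and is itself induced by NF-κB, which closes a negative feedback loop. Cdkn1a encodes p21, the cyclin-dependent kinase inhibitor that p53 induces, and Ddit4 encodes REDD1, which lowers mTORC1 activity during hypoxia, energy stress and glucocorticoid exposure. Nfkbia and Ddit4 are also widely known as glucocorticoid-induced transcripts.

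On GRCm38, with GENCODE release M21, Gadd45a lies at chr6:67035096-67037457 on the minus strand and Gadd45b at chr10:80930073-80932204 on the plus strand. Gadd45g lies at chr13:51846678-51848468 (plus) and Nfkbia at chr12:55489410-55492647 (minus). Cdkn1a lies at chr17:29090976-29100727 (plus) and Ddit4 at chr10:59949669-59951834 (minus). Gadd45a overlaps E230016M11Rik and Cdkn1a overlaps AC167363.2, both on the opposite strand. Whether strand was used in counting is not given in the sources used here, so reads of these pairs may not be separated.

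The 250 bases before the transcription start are printed for the 4 genes on which the results turn, Nfkbia, Cdkn1a, Gadd45b and Gadd45g. They are shown 5′ to 3′ on the gene's strand from RefSeq on GRCm38.p6, whose table matched 6 of 6 genes. They were chr12:55492648-55492897 (minus), chr17:29090729-29090978 (plus, the upstream of 2 starts), chr10:80929841-80930090 (plus) and chr13:51846425-51846674 (plus). Capitals mark the NF-κB consensus in Nfkbia, p53 half-site consensus matches in Cdkn1a, and CACGTG (the E-box) and TATAAA (the TATA box) in the Gadd45 genes.
Nfkbia: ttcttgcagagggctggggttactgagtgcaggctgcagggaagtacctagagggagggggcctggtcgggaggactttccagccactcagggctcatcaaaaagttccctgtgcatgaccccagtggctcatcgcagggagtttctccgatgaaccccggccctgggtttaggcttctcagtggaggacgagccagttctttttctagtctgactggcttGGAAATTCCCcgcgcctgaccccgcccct
Cdkn1a: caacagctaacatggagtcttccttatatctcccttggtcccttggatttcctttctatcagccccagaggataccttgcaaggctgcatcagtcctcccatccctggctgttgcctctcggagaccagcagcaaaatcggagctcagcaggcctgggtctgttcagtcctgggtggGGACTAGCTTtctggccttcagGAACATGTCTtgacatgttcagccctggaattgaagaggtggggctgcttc
Gadd45b: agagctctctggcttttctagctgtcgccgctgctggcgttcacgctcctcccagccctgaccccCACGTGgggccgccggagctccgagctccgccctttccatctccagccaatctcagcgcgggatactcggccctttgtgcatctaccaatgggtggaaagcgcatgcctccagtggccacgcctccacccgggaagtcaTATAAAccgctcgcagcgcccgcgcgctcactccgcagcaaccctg
Gadd45g: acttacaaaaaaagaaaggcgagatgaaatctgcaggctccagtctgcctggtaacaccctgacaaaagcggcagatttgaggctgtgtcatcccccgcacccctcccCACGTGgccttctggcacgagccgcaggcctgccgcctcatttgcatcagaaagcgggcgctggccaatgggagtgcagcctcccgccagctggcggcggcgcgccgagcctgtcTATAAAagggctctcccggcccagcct

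Each motif was searched on both strands. The NF-κB match of Nfkbia lay 29 to 20 bases before the start, and 7.25% of 32851 promoter windows of this length held one. The matches of Cdkn1a lay 73 to 64 and 51 to 42 bases before the upstream start. The window of its other start, chr17:29093519-29093768 (plus), held no p53 half-site match. A further p53 half-site match stood in the Gadd45a window, 40 to 31 bases before the RefSeq start, and 7.13% of windows held one. That window, chr6:67037408-67037657 (minus), overlaps the GENCODE gene, which ends at 67037457, and the match lies in the overlap. The RefSeq windows of Gadd45b, Ddit4 and the upstream start of Cdkn1a also reach into their GENCODE genes. The E-box, a sequence that clock transcription factors bind, stood 185 to 180 bases before the start of Gadd45b and 142 to 137 before that of Gadd45g, and 6.02% of windows held one. TATAAA stood 46 to 41 bases before the start of Gadd45b and 27 to 22 before that of Gadd45g, with 12.4% of windows holding it. The CRE (TGACGTCA), the D-box (TTATGTAA), the glucocorticoid receptor site (GNACANNNTGTNC) and the CArG box consensus had no match in the windows of the 6 genes. A match is a description of the letters, and none was tested for binding.

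Levels are FPKM (fragments per kilobase of transcript, relative to all fragments of the library) that were rescaled to sum to 1000000 in each library. Before rescaling, the libraries summed to between 302899 and 432336, and the depth in reads is unknown. Markers of the SCN were detected in all 36 libraries, with Avp between 234 and 4301 and Vip between 6.30 and 135, while Oxt of other hypothalamic nuclei ranged from 372 to 4751. Some libraries stood apart. Alb, a liver transcript, exceeded 10 times its median of 15.2 in 3 libraries, with 1890 and 335 in replicate 1 of the chow groups at ZT0 and ZT4 and 285 in replicate 3 of the high-fat group at ZT0. The summed level of 9 striatum and cortex markers, with a median of 129, was highest in replicate 3 of the high-fat group at ZT16 (1693) and next in replicate 3 of the chow group at ZT12 (1078). The summed level of the SCN marker list was lowest in replicate 2 of the high-fat group at ZT8, at 369 against a median of 1741, and next lowest in that chow library at ZT12, at 603. Most of this sum is Avp, which averaged 1632 under chow and 1831 under high-fat diet. The same high-fat library was also the lowest of 36 for markers of other hypothalamic nuclei, at 1194 against a median of 3966.

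All 6 genes were detected in every library of both diets, with mean levels from percentile 54.5 (Gadd45b) to 87.5 (Ddit4) of all rows. The mean level over the 36 libraries was highest for Ddit4, at 62.7 ± 10.8 (SD, n = 36), followed by Gadd45g at 26.5 ± 5.09 and Nfkbia at 24 ± 5.29. Cdkn1a averaged 11 ± 2.95, Gadd45a 10.4 ± 1.62 and Gadd45b 7.10 ± 1.95. Gadd45g and Nfkbia differed by less than their SD, as did Cdkn1a and Gadd45a. The libraries of Ddit4 (32.6 to 90.4) and Gadd45g (13.2 to 41.7) overlapped at their ends, as did those of Nfkbia (17.2 to 38.6) and Cdkn1a (5.39 to 18.8).

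**Figure D1:**
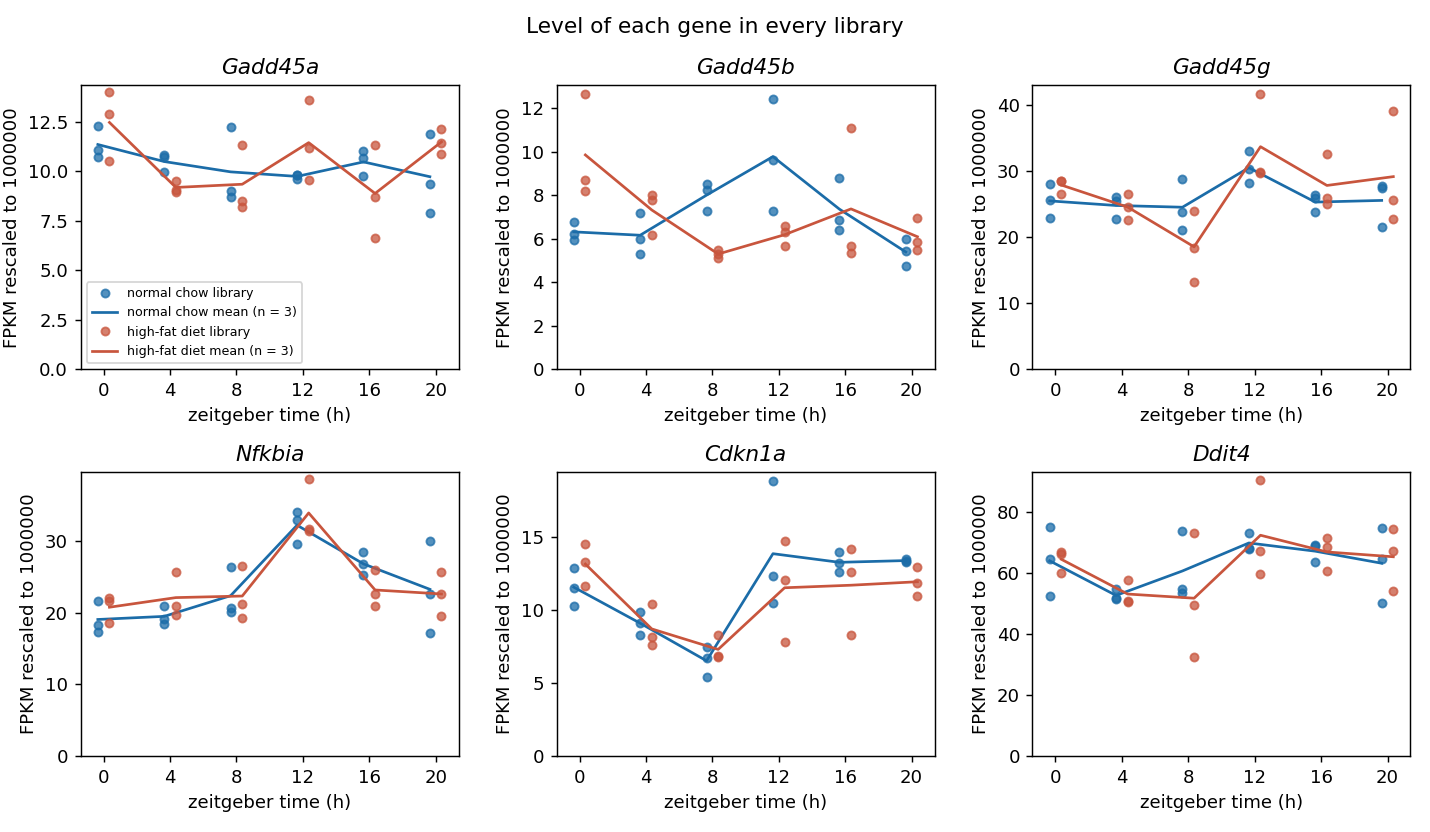
Level of each gene (y axis, FPKM rescaled to 1000000 per library) against zeitgeber time in hours (x axis), with 1 point per library and lines through the means of 3 libraries for normal chow (blue) and high-fat diet (red). Nfkbia was highest at ZT12 and Cdkn1a lowest at ZT8 in both diets, while the lines of Gadd45b crossed, with the high-fat libraries above the chow libraries at ZT0 and below them at ZT8 and ZT12.

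The first question was whether the genes followed a daily rhythm. It was tested in limma with a cosine of period 24 h on log2(level + 1), with Benjamini-Hochberg adjustment over all rows that had a mean level of at least 1. All 6 genes passed that minimum. A peak-to-trough fold is the ratio of the top to the bottom of the fitted cosine on the log2(value + 1) scale. Over both diets together, 2 of the 6 genes, Nfkbia and Cdkn1a, passed an adjusted p of 0.05, where 2.18% of all 15173 rows did. Under chow alone 1 of 6, Nfkbia, passed, against 0.845% of all rows. Under high-fat diet 0 of 6 passed, against 0.0728% of all rows, while 2 of 6 had an unadjusted limma p under 0.05, as did 8.64% of all rows.

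Nfkbia, the inhibitor of NF-κB, had its highest mean at ZT12 in both diets. Under chow its levels in replicates 1, 2 and 3 were 17.3, 21.6 and 18.3 at ZT0, 20.9, 18.5 and 19.1 at ZT4, and 20.7, 26.4 and 20.1 at ZT8. They were then 29.6, 32.9 and 34.1 at ZT12, 25.2, 28.4 and 26.8 at ZT16, and 17.2, 22.5 and 30.0 at ZT20. The chow libraries at ZT12 lay wholly above those of 4 of the other 5 time points and overlapped those at ZT20, whose replicate 3 was high.

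Under high-fat diet Nfkbia measured 18.6, 21.6 and 22.1 at ZT0, 19.7, 21.0 and 25.7 at ZT4, and 26.5, 21.2 and 19.2 at ZT8. The levels were 31.7, 31.4 and 38.6 at ZT12, 25.9, 22.6 and 21.0 at ZT16, and 25.7, 19.5 and 22.6 at ZT20. Here the libraries at ZT12 lay wholly above those of all 5 other time points, which overlapped one another. The mean at ZT12 was 1.69 times that at ZT0, the lowest time point, under chow and 1.63 times under high-fat diet. Over both diets the fitted peak was at ZT13.1 ± 0.664 h (SE) with a 1.48-fold peak to trough (limma, adjusted p = 0.00229). Under chow alone the fit gave 1.60-fold at ZT13.6 (limma, adjusted p = 0.0357), and under high-fat diet 1.39-fold at ZT12.4 (limma, adjusted p = 0.505). The chow call alone was lost in several settings, with an adjusted limma p of 0.0547 without the Alb-rich libraries and 0.0660 without replicate 3 at ZT12. It held in 25 of 36 fits without 1 library. However, 18 of the 36 left out a high-fat library, which the chow fit does not use.

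Cdkn1a, which encodes p21, had its lowest mean at ZT8 in both diets. Under chow it measured 11.5, 12.9 and 10.3 at ZT0, 9.87, 8.25 and 9.12 at ZT4, and 5.39, 6.73 and 7.43 at ZT8. It measured 12.3, 10.4 and 18.8 at ZT12, 13.2, 13.9 and 12.6 at ZT16, and 13.3, 13.2 and 13.5 at ZT20. All 3 chow libraries at ZT8 lay below every library of the 5 other time points. The highest library of all was replicate 3 at ZT12. It was one of those with a high striatum and cortex sum and a low SCN sum, which is mostly Avp. The part of these in its value was not tested.

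Under high-fat diet Cdkn1a measured 14.5, 11.6 and 13.2 at ZT0, 10.4, 8.13 and 7.58 at ZT4, and 8.26, 6.86 and 6.75 at ZT8. It measured 7.81, 12.0 and 14.7 at ZT12, 12.6, 8.28 and 14.2 at ZT16, and 12.9, 11 and 11.8 at ZT20. The libraries at ZT8 lay wholly below those at ZT0, ZT16 and ZT20 and overlapped those at ZT4 and ZT12. The highest group mean was at ZT12 under chow (13.8, with replicate 3 at 18.8) and at ZT0 under high-fat diet (13.1). It was 2.12 times the lowest under chow and 1.80 times under high-fat diet. The fit over both diets peaked at ZT18.6 ± 0.681 h (SE) with a 1.64-fold peak to trough (limma, adjusted p = 0.00273). The chow fit, 1.78-fold, missed the threshold (limma, adjusted p = 0.0566), but passed without replicate 3 at ZT12 (limma, adjusted p = 0.00863). The high-fat fit was 1.54-fold with a peak at ZT19.4 (limma, adjusted p = 0.471).

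Ddit4, the inhibitor of mTORC1, was the most abundant of the 6. Its chow group means ran from 52.7 ± 1.78 (SD, n = 3) at ZT4 to 69.9 ± 2.95 at ZT12, and its high-fat means from 51.8 ± 20.3 at ZT8 to 72.4 ± 16.0 at ZT12. The chow libraries at ZT4 (51.5, 51.9 and 54.7) lay wholly below those at ZT12 (68.4, 68.0 and 73.3), while ZT0, ZT8 and ZT20 spanned both. The high-fat libraries at ZT8 spread from 32.6 to 73.1, and the lowest was the library with the lowest SCN marker sum. The 24 h fit over both diets was 1.27-fold with a peak at ZT16.5 and missed the threshold (limma, adjusted p = 0.199).

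None of the 3 GADD45 genes passed the rhythm test in limma over both diets or in either diet, and Gadd45b under chow was the only one of these fits with an unadjusted p under 0.05. Gadd45a was the steadiest, with chow group means from 9.74 ± 2.02 (SD, n = 3) at ZT20 to 11.4 ± 0.831 at ZT0 and high-fat means from 8.89 ± 2.36 at ZT16 to 12.5 ± 1.77 at ZT0. Its neighbouring groups overlapped throughout the order of means in both diets. Its fit over both diets was 1.12-fold (limma, adjusted p = 0.633).

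Gadd45g, the most abundant of the 3 paralogues, had its highest mean at ZT12 and its lowest at ZT8 in both diets. Under chow it measured 28.3, 33.0 and 30.3 at ZT12 and 21.1, 28.8 and 23.8 at ZT8. Under high-fat diet it measured 41.7, 29.8 and 29.7 at ZT12 and 24.1, 13.2 and 18.4 at ZT8. The 2 time points overlapped under chow and were apart under high-fat diet, where the highest group mean was 1.82 times the lowest, against 1.24 times under chow. The lowest library was again the one with the lowest SCN marker sum. A 24 h cosine over both diets gave 1.2-fold (limma, adjusted p = 0.489).

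Gadd45b had its highest mean at ZT12 under chow and at ZT0 under high-fat diet. Under chow it measured 6.24, 6.77 and 5.96 at ZT0, 5.30, 5.99 and 7.21 at ZT4, and 7.30, 8.51 and 8.23 at ZT8. It measured 7.27, 9.63 and 12.5 at ZT12, 6.88, 6.43 and 8.80 at ZT16, and 5.44, 6.02 and 4.74 at ZT20. The chow libraries at ZT8 and ZT12 lay above all of those at ZT0, ZT4 and ZT20.

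Under high-fat diet Gadd45b measured 8.21, 8.69 and 12.7 at ZT0, 7.77, 6.20 and 8.02 at ZT4, and 5.29, 5.51 and 5.12 at ZT8. It measured 5.66, 6.33 and 6.59 at ZT12, 5.68, 5.36 and 11.1 at ZT16, and 6.97, 5.48 and 5.86 at ZT20. The libraries at ZT0 lay wholly above those of 4 other time points and overlapped those at ZT16 through replicate 3 alone. The chow fit peaked at ZT11 ± 0.860 h (SE) with 1.53-fold (limma, adjusted p = 0.0752), and the high-fat fit at ZT23.4 ± 1.63 h with 1.37-fold (limma, adjusted p = 0.589). Fitted together, the diets gave 1.06-fold (limma, adjusted p = 0.936).

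**Figure D2:**
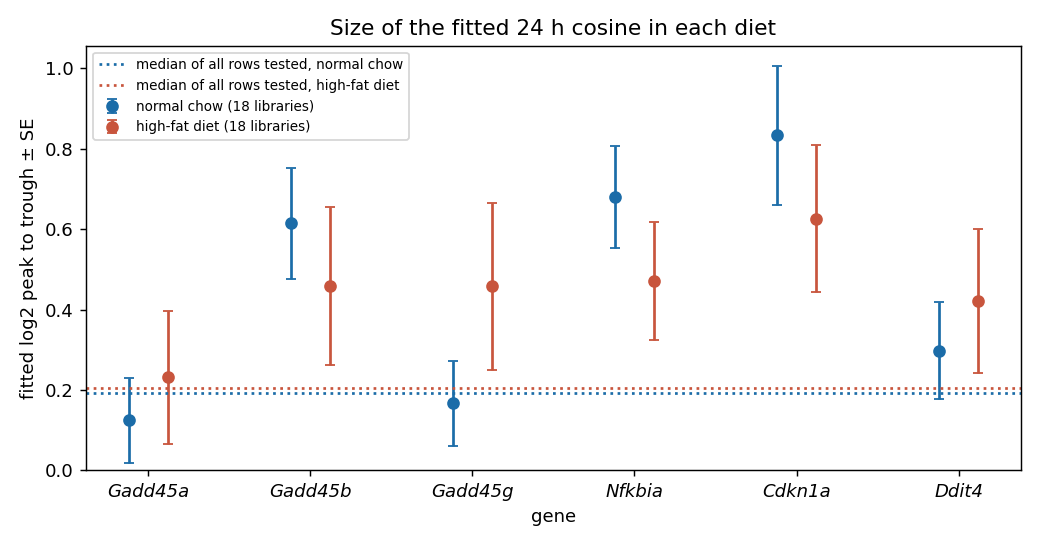
Fitted log2 peak to trough ± SE of the 24 h cosine (y axis) for each gene (x axis) under normal chow (blue, 18 libraries) and high-fat diet (red, 18 libraries), with dotted lines at the median of all rows tested in each diet (0.19 and 0.21). Cdkn1a, Nfkbia and Gadd45b stood highest under chow, at 0.83, 0.68 and 0.61, and Gadd45a stood near the dotted lines in both diets.

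The second question was whether high-fat feeding shifted the level of the genes. Over all time points 0 of the 6 genes passed, and 0 had an unadjusted limma p under 0.05, where 0.0132% of all rows passed. The log2 change (high-fat minus chow) was −0.06 ± 0.08 (SE) for Cdkn1a, −0.03 ± 0.10 for Gadd45b, −0.03 ± 0.08 for Ddit4, 0.02 ± 0.06 for Nfkbia, 0.02 ± 0.07 for Gadd45g and 0.01 ± 0.07 for Gadd45a. The widest of the 95% intervals, that of Gadd45b, ran from −0.24 to 0.17, and the narrowest, that of Nfkbia, from −0.10 to 0.15. Changes of that size are not excluded by these data. Each diet was deposited as its own table, so a difference in how the tables were made and the diet itself cannot be told apart.

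At single time points 0 of 36 tests of the 6 genes passed, against 0% of all rows at 5 time points and 0.00659% at ZT12. There were 4 with an unadjusted limma p under 0.05, of which 3 belonged to Gadd45b and the other to Gadd45g. Over all rows, 6.2% of these tests had such a p, and at ZT8, where 2 of the 4 lie, 16.1% did. The diets did not overlap in 5 of the 36 comparisons of 3 against 3 libraries, beside 10.2% over all rows and time points. Those were Gadd45b at ZT0, ZT8 and ZT12, Gadd45a at ZT4 and Cdkn1a at ZT20. In the last 2 the high-fat libraries were the lower, with Gadd45a at 8.99 to 9.52 against 9.96 to 10.8 and Cdkn1a at 11 to 12.9 against 13.2 to 13.5. Of all rows, 2.72% were wholly lower at ZT4 and 5.19% at ZT20.

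The log2 changes of Gadd45b between the diets differed in sign among the time points, and none passed the threshold. At ZT0 every high-fat library (8.21 or more) lay above every chow library (6.77 or less), a log2 change of 0.55 ± 0.19 (SE; limma, unadjusted p = 0.00781, adjusted p = 0.875). At ZT8 the high-fat libraries were all lower, by a log2 change of −0.51 ± 0.19 (limma, unadjusted p = 0.0119, adjusted p = 0.273). At ZT12 they were again all lower, at −0.56 ± 0.19 (limma, unadjusted p = 0.00678, adjusted p = 1). At ZT4, ZT16 and ZT20 the diets overlapped, with log2 changes of 0.22, −0.05 and 0.15. Of all rows, 3.15% had high-fat libraries wholly above chow at ZT0, and 3.16% and 3.07% had them wholly below at ZT8 and ZT12.

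**Figure D3:**
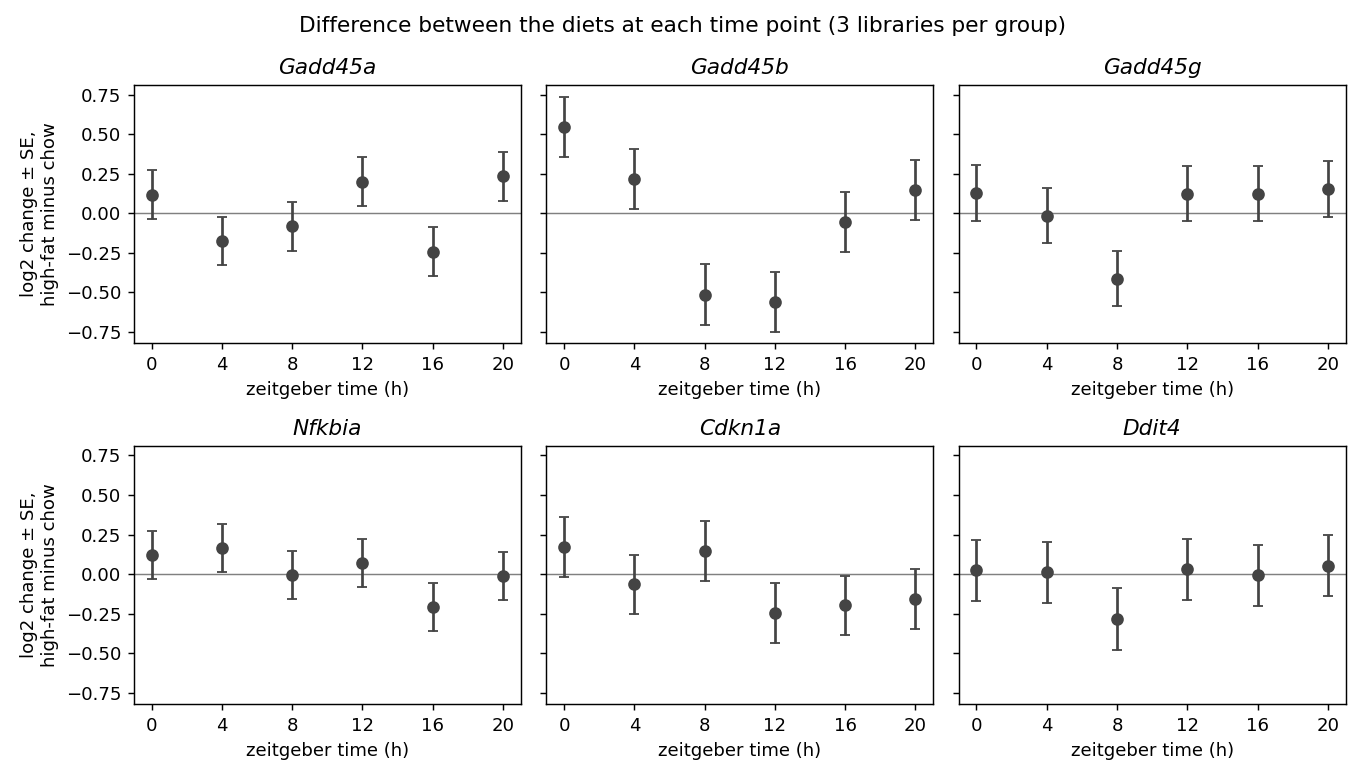
Log2 change between the diets (y axis, high-fat minus chow, ± SE, 3 libraries per group) at each zeitgeber time in hours (x axis), with 1 panel per gene and a line at 0. Gadd45b went from 0.55 at ZT0 to −0.56 at ZT12, and none of the 36 points passed the adjusted threshold.

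A direct test of whether the rhythm differed between diets gave 0 of 6 genes, and 0 of 15173 rows (0%) in all, although 2004 rows had an unadjusted limma p under 0.05. Gadd45b was the only one of the 6 with an unadjusted p under 0.05 (limma, unadjusted p = 0.000502, adjusted p = 0.357). The 5 diet by time point terms gave the same count, 0 of 6 and 0 of all rows (0%), with 773 rows at an unadjusted p under 0.05 and Gadd45b at an unadjusted p = 0.00184 (limma, adjusted p = 0.720). Nfkbia and Cdkn1a had unadjusted p of 0.408 and 0.437 for the difference in rhythm.

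The summed markers of meningeal fibroblasts separated the diets in the same direction as Gadd45b at ZT0 and ZT12 and not at ZT8. Of the 10 genes, 9 had an unadjusted limma p under 0.05 for the difference in rhythm, beside 13.2% of all rows, and 0 passed. A correlation of the list with Gadd45b was not tested. The summed level of that list (10 of 10 genes in the tables, none at 0 in any library) ranged from 200 to 546 under high-fat diet and 96.0 to 159 under chow at ZT0. At ZT12 it ranged from 98.1 to 189 under high-fat diet and 225 to 308 under chow. At ZT8, where the diets were also apart for Gadd45b, the list overlapped, at 80.7 to 183 under high-fat diet and 86.7 to 189 under chow. The 3 highest levels of Gadd45b lay in replicate 3 of the high-fat group at ZT0, in replicate 3 of the chow group at ZT12 and in replicate 3 of the high-fat group at ZT16. Their meningeal sums were 546, 308 and 145 against a median of 141, and the last 2 had the highest striatum and cortex sums. In bulk tissue, fewer cells of a type and less RNA per cell cannot be told apart.

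With mean marker scores of 5 cell types as covariates (astrocytes, oligodendrocytes, microglia, endothelial and mural cells, and meningeal fibroblasts), the log2 change of Gadd45b was 0.25 at ZT0, −0.53 at ZT8 and −0.41 at ZT12, and the difference in rhythm had a limma unadjusted p = 0.00960 (adjusted p = 0.666). Without replicate 3 of the chow group at ZT12 the change there was −0.38, and without replicate 3 of the high-fat group at ZT16 the change there was −0.35 in place of −0.05. Without replicate 3 of the high-fat group at ZT0 the change there was 0.37.

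Gadd45g also had a lower mean under high-fat diet at ZT8, by a log2 change of −0.41 ± 0.18 (SE; limma, unadjusted p = 0.0260, adjusted p = 0.279). The high-fat libraries (13.2 to 24.1) overlapped the chow libraries (21.1 to 28.8). Without replicate 1 of that high-fat group the change was −0.61 with an adjusted limma p of 0.0428, but 1100 rows then passed at single time points. Without replicate 2, the library with the lowest SCN marker sum and the highest astrocyte sum (4639, median 3714), the change was −0.20 (limma, adjusted p = 1).

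The genes were then compared with one another over the 36 libraries. Of the 15 pairs, 4 passed with both Pearson and Spearman permutation tests after adjustment over the pairs. The share of pairs among all rows that would pass was not tested, so the count is not shown to be particular to these genes. Gadd45g and Ddit4 had r = 0.683 and rho = 0.640 (adjusted permutation p = 0.0003 for each), and Nfkbia and Ddit4 had r = 0.635 and rho = 0.715 (adjusted permutation p = 0.0003 and 0.00015). Gadd45g and Nfkbia had r = 0.514 and rho = 0.656 (adjusted permutation p = 0.00469 and 0.000225), and Cdkn1a and Ddit4 had r = 0.513 and rho = 0.464 (adjusted permutation p = 0.00469 and 0.0168). Without the 2 libraries farthest from the median of the first gene of each pair, r was 0.628, 0.553, 0.538 and 0.594 in that order. Gadd45a and Gadd45b passed with none of the others.

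These levels share the time of day, so the deviations of each library from its group mean were compared as well. One of 15 pairs then passed, Nfkbia with Ddit4, with r = 0.750 and rho = 0.821 (permutation within groups, p = 0.00026 and 8e-05, adjusted p = 0.0039 and 0.0012). The value was 0.847 in the 18 chow libraries and 0.721 in the 18 high-fat libraries. It was 0.726 without the 2 farthest libraries and 0.754 without the Alb-rich libraries. Within groups, Nfkbia and Ddit4 thus tended to be high in the same libraries. Whether pairs of other rows do so as strongly was not tested.

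**Figure D4:**
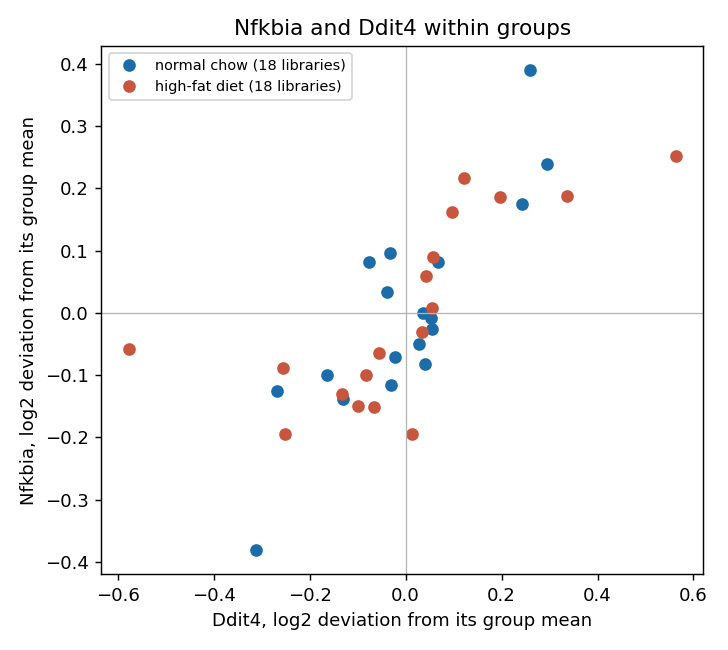
Log2 deviation of Nfkbia (y axis) against that of Ddit4 (x axis) from the mean of the 3 libraries of the same diet and time point, with 1 point per library (blue chow, red high-fat diet). The points rise together in both diets, with r = 0.847 under chow and 0.721 under high-fat diet.

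The rows most like each gene over the 36 libraries were listed by Pearson r of log2 levels, as a description with no test. For Nfkbia they were Sgk1, a serum- and glucocorticoid-regulated kinase, at 0.914, Plekhf1 at 0.832 and Tob2 at 0.794. For Gadd45b they were Sod3, the extracellular superoxide dismutase, at 0.780, the transcription factor gene Tbx18 at 0.770 and Igfbp2, an insulin-like growth factor binding protein, at 0.759. For Cdkn1a they were the small heat shock protein gene Hspb1 at 0.677, Cryba4 at 0.665 and the sulfotransferase gene Sult1a1 at 0.654. For Ddit4 they were Tax1bp3 at 0.738, Bcl10 at 0.705 and Maf1, a repressor of RNA polymerase III, at 0.699. For Gadd45g they were Imp3 at 0.719, Lsm1 at 0.714 and Slc25a33 at 0.713, and for Gadd45a Fam110a at 0.697, Srprb at 0.664 and Ift22 at 0.654. These libraries share dissection, depth and time of day.

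Genes that act around each of the 6 were read from pathway lists. These lists were chosen with earlier results of these data known, so their counts and peak times are a description and no independent evidence. Of the list of glucocorticoid-responsive genes, 11 of 22 passed the 24 h rhythm over both diets (limma, adjusted p under 0.05), beside 2.18% of all rows. The median log2 peak to trough was 0.42 over the list beside 0.14 over all rows. Those 11 included Plin4, a lipid droplet coat protein gene (3.41-fold, peak ZT16.0), Tsc22d3, which encodes GILZ (1.65-fold, ZT13.9), and the transcription factor gene Klf15 (1.4-fold, ZT14.3). Sgk1 was 3.06-fold with a peak at ZT13.4, close to the ZT13.1 of Nfkbia. The peak of the core clock gene Cry1, which is not in this list, was as close, at ZT12.9. The fitted peaks of the 11 ran from ZT11.4 (Per1) to ZT21.2 (Angptl4). The receptor genes Nr3c1 and Nr3c2 did not pass (1.11-fold and 1.25-fold, limma, adjusted p = 0.703 and 0.467).

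**Figure D5:**
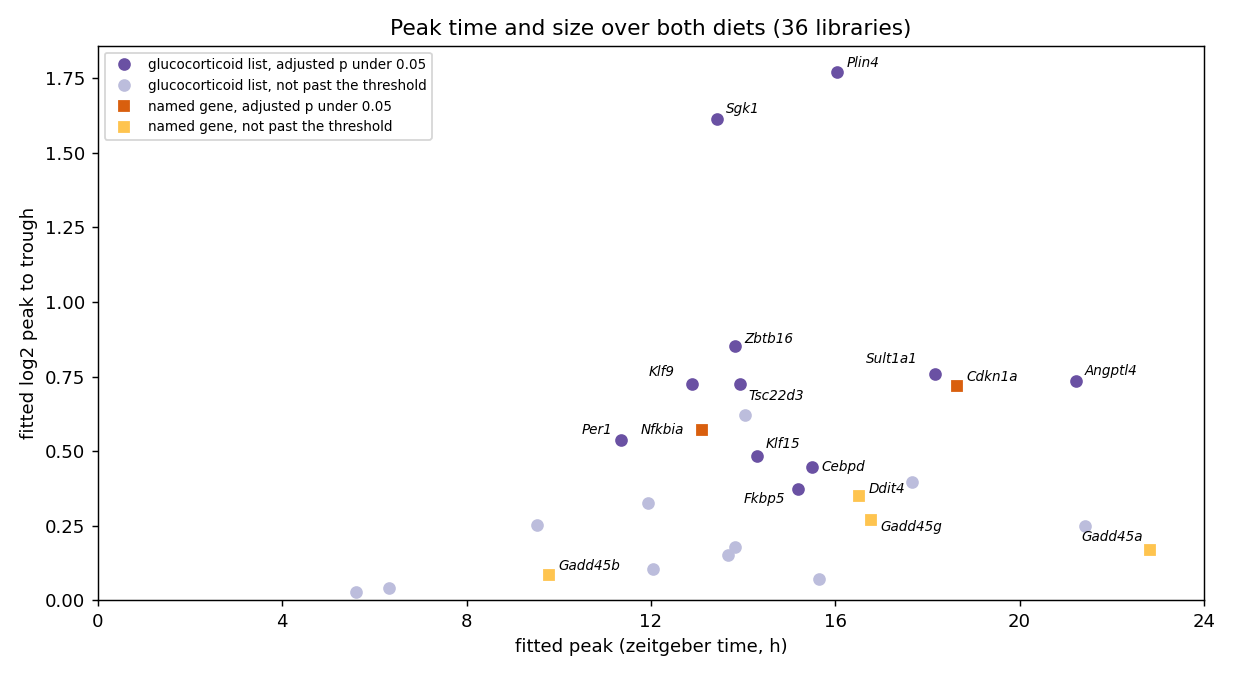
Fitted peak in zeitgeber hours (x axis) against fitted log2 peak to trough (y axis) over both diets (36 libraries), for the glucocorticoid-responsive list (circles) and the 6 genes (squares), dark where the adjusted p was under 0.05. Nfkbia (ZT13.1) sits among Klf9, Tsc22d3 and Klf15, and Cdkn1a (ZT18.6) beside Sult1a1 (ZT18.2).

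Around IκBα, 0 of 15 tested NF-κB subunits, inhibitors and kinases passed the rhythm over both diets, and the smallest p belonged to Nfkbie, another IκB (1.17-fold, limma, unadjusted p = 0.0197, adjusted p = 0.254), and Rela (1.17-fold, adjusted p = 0.331). Of 10 tested NF-κB target genes, 1 passed, Traf1, an adaptor of TNF receptors (1.49-fold, ZT23.5, limma, adjusted p = 0.0377). Around p21, 1 of 23 p53 pathway genes passed, the p53 target Ccng1 (1.2-fold, ZT16.8, limma, adjusted p = 0.0240), and 0 of 13 other CDK inhibitors and G1 cyclins and kinases, where Ccne1 and Ccne2 had the smallest p (1.17-fold and 1.19-fold, limma, adjusted p = 0.298 and 0.308).

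Around REDD1, 1 of 15 mTORC1 genes passed, Akt1s1, which encodes PRAS40, an inhibitory partner of mTORC1 (1.16-fold, ZT21.8, limma, adjusted p = 0.00473). Of 16 hypoxia response genes 3 passed, Hif3a, a hypoxia-inducible factor subunit gene (2.63-fold, ZT13.9), the prolyl hydroxylase gene P4ha1 (1.4-fold, ZT19.6) and the glucose transporter gene Slc2a1 (1.30-fold, ZT13.7). None of 16 tested genes of the integrated stress response passed, with Ppp1r15b and Slc7a11 at the smallest p (1.16-fold and 1.18-fold, limma, adjusted p = 0.225 and 0.315). Around GADD45, 0 of 18 tested partners and MAP kinases passed, where Mapk12 and Map2k6 had the smallest p (1.26-fold and 1.25-fold, limma, adjusted p = 0.243 and 0.381). The immediate early genes gave 0 of 19, led by Dusp6 and Fosl2 (1.25-fold and 1.27-fold, limma, adjusted p = 0.203 and 0.344), and the core clock genes 8 of 18, led by Dbp (2.29-fold, ZT9.54, limma, adjusted p = 3.08e-11). Next by p were Nr1d1 (1.47-fold, ZT6.64), Ciart (1.68-fold, ZT8.74) and Cry1 (1.29-fold, ZT12.9, limma, adjusted p = 0.000422). For diet over all time points 0 genes passed in each of these 11 lists. The smallest p among them was that of Angptl4, a lipoprotein lipase inhibitor gene (log2 change 0.27 ± 0.07 SE, limma, unadjusted p = 0.000873, adjusted p = 1).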

How the data were processed

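RNA-seq libraries of an SCN-enriched region were prepared with a TruSeq stranded mRNA protocol, per the labels' protocols. Trimmomatic, TopHat and Cufflinks with builds mm10 and GRCm38 are named in the submitters' processing notes, without versions. The authors deposited FPKM, 1 table per diet. The unit is inferred from Cufflinks and the values, since the headers name none. The file headers give the time points as ZT. Whether values were normalized further is not given in the sources used here.

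Each library was rescaled to a sum of 1000000 and transformed as log2(value + 1), which understates fold changes of low genes. Rows with a mean of at least 1 were tested with limma 3.58.1 (R 4.3.3, mean-variance trend), with Benjamini-Hochberg adjustment over all rows and a threshold of 0.05. Rhythms used a 24 h cosine and sine, diet used time point as a factor or 12 group means, and interactions used diet terms. The procedure was also run on simulated data with independent normal noise and the same spread in all groups. Outlier libraries and pairing were not simulated, so that run cannot speak to them. Pair correlations used 100000 two-sided permutations in Python 3.11.15.

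The 6 genes and all lists were chosen with earlier results of these data known. The named-gene rule took the 6 genes, from each list those that passed (up to 4 by smallest p) or otherwise the 2 with the smallest p, and the 3 rows with the highest r per gene. Nr3c1, Nr3c2 and the rhythms of Angptl4, Per1 and the further points labelled in the plot of peak times fall outside it and were chosen after their values were seen. Alternatives were other scalings, filters and pseudocounts, no trend, a replicate block, tissue scores as covariates, libraries left out, and any difference among time points. One marker gene and the fits that rest on it are not reported here.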

Additional observations from a re-analysis of the deposited data

Results flagged for a closer look

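Gadd45b was flagged for the unadjusted p of the terms that let the difference between the diets vary over time points. The 5 diet by time point terms had an unadjusted p = 0.00184 in limma, which missed the threshold over all rows (adjusted p = 0.720). The log2 change (high-fat minus chow) was 0.55 at ZT0, -0.51 at ZT8 and -0.56 at ZT12. The summed meningeal fibroblast markers were higher under high-fat diet at ZT0 and lower at ZT12. At ZT8 they overlapped, at 80.7 to 183 under high-fat diet and 86.7 to 189 under chow. Of the 10 genes of that list, 6 had an unadjusted limma p under 0.05 for the same terms, beside 5.09% of all rows. The part of these markers in the Gadd45b result was not tested beyond the fit with 5 tissue scores (limma, unadjusted p = 0.0707 for the same terms).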

How the results depend on the processing

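The rhythms of Nfkbia and Cdkn1a over both diets kept their calls in all 10 alternatives and in all 36 fits without 1 library, with adjusted limma p from 0.000635 to 0.0269 for Nfkbia and 0.000335 to 0.00687 for Cdkn1a. Under chow alone the number of genes called, 1 as reported, was 2 with median-of-ratios scaling and with deposited FPKM, where Gadd45b also passed (limma, adjusted p = 0.0408 and adjusted p = 0.0429). It was 0 with no filter, without the Alb-rich libraries and with 5 tissue scores, where Nfkbia had an adjusted p of 0.0513, 0.0547 and 0.197. With 1 library left out it ranged from 0 to 1, and Nfkbia kept its call in 25 of 36 such fits. Of these 36, 18 left out a high-fat library, which the chow fit does not use. A test of any difference among chow time points called Cdkn1a (adjusted p = 0.0418) and not Nfkbia (0.183). The causes were not tested. At single time points the count, 0, ranged from 0 to 1 with 1 library left out, and the 1 was Gadd45g at ZT8 without replicate 1 of that high-fat group. Over all rows, calls ran from 50 to 258 under chow, from 1 to 11 under high-fat diet and from 286 to 728 over both diets, each over the alternatives. With replicate number as a block, the counts of the 7 comparisons were 1, 0, 2, 0, 0, 0 and 0, the same as without it. That block is a shift per number shared by all groups, so it cannot test pairing within a time point. Not every pair of same-numbered libraries at a time point correlated positively (median 0.103, from -0.276 to 0.319), so the numbers were not taken to pair the libraries. The median was 0.0254 for the same number in any other group and -0.0166 for other numbers in other groups. That 22 of 36 libraries correlated best with their own number is a hint from the data, not from the design. A fit that pairs libraries within a time point was not run. FPKM keep no read depth, so counting error could not be given.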
